A study of Mus musculus with 30 samples.

Results

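The comparison set 11 adipocyte libraries labelled Ctnnb1AdKO against 12 adipocyte libraries labelled Ctnnb1fl/fl, 23 of the 30 mouse libraries of the series, and asked which transcripts differed with the genotype label in the same direction in both sexes. The male set held 5 knockout and 6 control libraries and the female set 6 knockout and 6 control libraries, and all 23 were chosen by their column names in the count table, which mark adipocytes of males or females. The other 7 libraries came from stromal-vascular cells (SVC) of males, 4 labelled knockout and 3 labelled control. They entered none of the adipocyte fits, and were used to place genes and to read the genotype label in SVC. All animals, controls included, carried the floxed Ctnnb1 allele. White fat had been digested with collagenase, and the floating adipocytes had been parted from the pelleted SVC by centrifugation. The labels name an epididymal and a posterior subcutaneous depot for every library, female libraries included, so the depot of a single library is not known. The labels do not name the Cre driver, the exons removed or the age, and do not say that each replicate was a separate mouse, so p-values measure the spread between these libraries, which may in part be technical.

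β-Catenin, the product of Ctnnb1, joins cadherins to the actin cytoskeleton at cell contacts and carries the canonical Wnt signal to the nucleus, where it binds TCF/LEF factors and activates their target genes. In preadipocytes this signal is known for holding back adipogenesis, and in mature adipocytes it has been tied to lipogenic gene expression. The adipocyte defining genes were abundant in every group: Adipoq, which encodes adiponectin, averaged 4902 CPM (read counts scaled to library depth, here with TMM factors) in male controls and 4564 CPM in male knockouts, and 5973 and 5442 CPM in the matching female groups. Total counts ran from 21070904 to 22209603 per library. In bulk libraries of this kind, fewer cells of a type and less RNA per cell cannot be told apart.

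The Ctnnb1 transcript itself did not separate the genotype labels. In CPM of the library total, it ranged from 308 to 341 in the 6 male controls, from 308 to 368 in the 5 male knockouts, from 291 to 359 in the 6 female controls and from 283 to 367 in the 6 female knockouts. The knockout level exceeded the control level by 5.50 CPM on average over both sets (two-sided permutation test within sex, p = 0.555), and the log2 difference of the count model was 0.04 (SE 0.06, edgeR adjusted p = 0.764). A gene count pools all exons, so a transcript that lacks only the floxed exons would still be counted, and these values check neither the deletion nor the labels.

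Across 14227 genes tested, 85 genes (0.597%) passed a Benjamini-Hochberg adjusted p of 0.05 for the average genotype effect in edgeR's quasi-likelihood test with sex as a block: 50 were higher (0.351%) and 35 lower (0.246%) in knockouts. Without scaling factors, on library totals alone, the same number was split into 41 higher and 44 lower. The estimates of all 85 had the same sign in males and in females. A stricter class, called the shared genes below, also required an unadjusted p under 0.05 in each set with the same sign, and held 63 genes (0.443%), 30 higher (0.211%) and 33 lower (0.232%). The sets that define this class also enter the average, so agreement between the sexes within it is a description and not a separate test. In the model of all 4 groups, 10 genes (0.0703%) were called in males and 67 (0.471%) in females, and of the 63 shared genes 3 were called in males, 20 in females, 1 in both and 41 in neither. Of the other 22 called genes, 19 missed that limit in males and 3 in females. Without female knockout 1 the called genes numbered 46 and the shared genes 37, and without female control 3 they numbered 52 and 41.

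**Figure D1:**
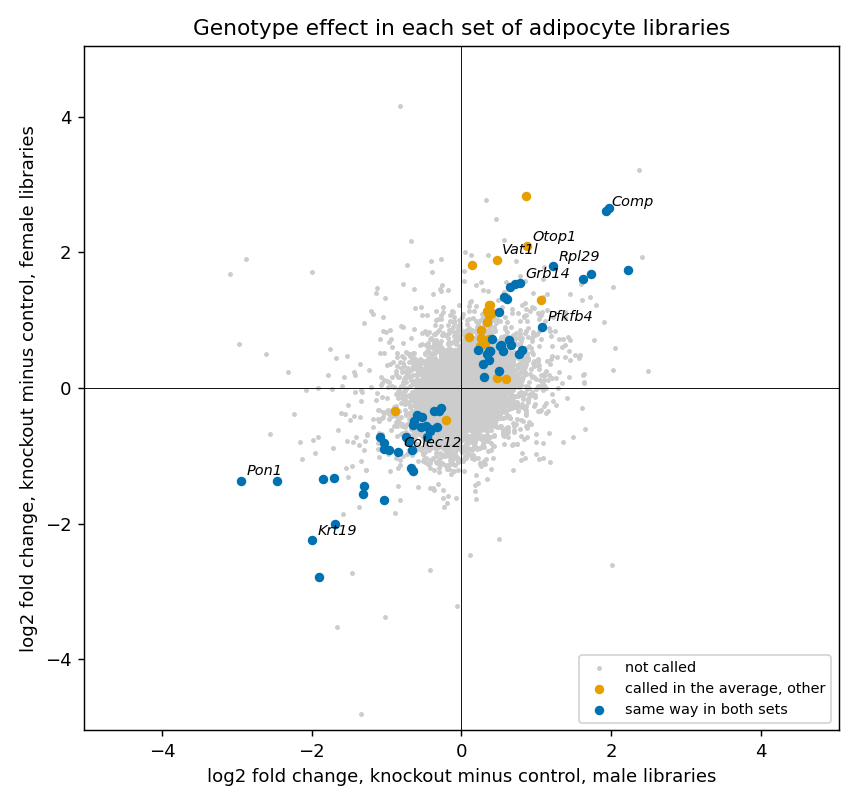
Genotype effect in males (x axis) against females (y axis), each as the log2 fold change of knockout minus control, for all 14227 genes tested (grey), the 63 shared genes (blue) and the other 22 called genes (orange). All 85 called genes lie in the upper right or lower left quadrant.

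Read 1 set at a time, the overlap was thinner. Fitted alone, the 11 male libraries gave 6 called genes (0.0422%) and the 12 female libraries 22 (0.155%). Of the 19 genes called higher in females alone, 17 had a positive estimate in males, where 51.8% of all genes had one, and 7 also reached an unadjusted p under 0.05 there, a share to be read against 7.58% of all genes. Of the 3 called lower in females, 2 were negative in males (48.2% of all genes were) and 1, Colec12, reached that p, against 7.8% of all genes. The gene called higher in males, Pfkfb4, reached it in females, as 4.06% of all genes did, where 50.6% had a positive estimate. The 5 called lower in males were Serpina3k, Pon1, Slc43a1, Serpina3b and Cyp2e1: 3 were negative in females (49.4% of all genes were) and 2 reached that p (4.66%). No gene called in 1 set alone passed the adjusted threshold in the other. Over all genes the male and female estimates had Pearson r = 0.247 and Spearman rho = 0.185, and 56.4% had the same sign. These are descriptions across genes, which are not independent replicates.

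Grb14, which encodes an adaptor that binds the insulin receptor and restrains its signal, led the genes that were higher in knockouts. It stood at 49.9, 50.2, 44.3, 50.2 and 32.8 CPM in the 5 male knockouts, against a lowest, median and highest value of 17.2, 26.3 and 36.9 CPM in male controls. In females the lowest, median and highest values were 17.5, 18.3 and 22.7 CPM in knockouts and 4.54, 6.07 and 9.15 CPM in controls. The female groups did not overlap, and in males knockout 5 lay below control 6. The average log2 difference was 1.17 (SE 0.15, edgeR adjusted p = 0.000236), with 0.78 (SE 0.18) in males and 1.55 (SE 0.18) in females. Among 23 tested members of a list of insulin signalling genes, Grb14 was the single gene called, beside 0.597% of all genes. The list median was 0.04 beside 0.01 for all genes.

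Pon1 and Colec12 led the genes that were lower. Pon1 encodes paraoxonase 1, an esterase carried on high-density lipoprotein, and it measured 0.918, 1.41, 2.03, 1.95 and 2.57 CPM in the 5 male knockouts. The lowest, median and highest Pon1 values were 6.69, 14.1 and 21.0 CPM in male controls, 6.23, 7.86 and 16.4 CPM in female controls and 1.37, 4.13 and 5.80 CPM in female knockouts. Every knockout lay below every control of its sex. The average log2 difference was -2.08 (SE 0.30, edgeR adjusted p = 0.00183), and it was -2.95 (SE 0.38) in males and -1.37 (SE 0.33) in females.

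Colec12, which encodes a scavenger receptor of the collectin family, had the smallest p of all genes tested. It measured 12.9, 17.3, 13.6, 17.9 and 8.49 CPM in male knockouts against 21.0, 23.7 and 31.4 CPM as lowest, median and highest value in male controls. In females, knockouts spanned 17.0 to 23.3 CPM (median 21.0) and controls 33.4 to 47.8 CPM (median 39.3). Neither sex showed an overlap between the labels, and the log2 difference was nearly the same in males (-0.85, SE 0.16) and females (-0.94, SE 0.15). The average was -0.90 (SE 0.11, edgeR adjusted p = 0.000123). Knockouts lay fully apart from controls in 10 of the 30 higher shared genes in males (0.872% of all genes did so in that direction) and 11 in females (0.492%), and in 10 (0.956%) and 8 (0.302%) of the 33 lower ones. The shared genes were chosen by p-values from these same libraries. A larger share than over all genes is thus built into that choice and is no separate support. Full separation of knockouts from controls in both sexes was met by 5 genes of all those tested: Pon1 and Colec12 among the lower (0.0141%), and Hsd11b1, Rfc4 and the processed pseudogene Gm7049 among the higher (0.0211%). Gm7049 was chosen for mention after its values were seen, and reads of a processed pseudogene may be shared with its parent gene.

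Hsd11b1 encodes the enzyme that regenerates active glucocorticoid inside cells. Its levels were 143, 161, 117, 170 and 179 CPM in male knockouts against 88.2 to 116 CPM in male controls. In females they were 35.4 to 87.3 CPM in knockouts against 16.0 to 31.1 CPM in controls. The 2 sexes thus started from different control levels, and in both the knockouts stood above them (average log2 0.97, SE 0.17, edgeR adjusted p = 0.00685).

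Rfc4 encodes a subunit of the clamp loader of DNA replication. It was 5.07, 4.81, 4.45, 5.14 and 8.17 CPM in male knockouts against 3.53 to 4.08 CPM in male controls, and 5.84 to 7.65 CPM in female knockouts against 3.78 to 4.97 CPM in female controls. The gap between the labels was small and had no overlap in either sex (log2 0.55, SE 0.09, edgeR adjusted p = 0.00436). In gene order Rfc4 is the third tested gene before Adipoq on chromosome 16. The other 3 of the nearest 4 genes on that side were also estimated higher without passing the threshold: Gm49624 at 0.73 (edgeR adjusted p = 0.0874), 6330408M09Rik at 0.57 (0.10) and Eif4a2, a translation initiation helicase, at 0.39 (0.105). Adipoq itself was at -0.12 (0.564), and St6gal1, the next gene after it, at -0.19 (0.456). Farther on that side, Masp1 was at -0.60 (0.533), Gm45338 at -0.63 (0.528) and Rtp4 at 0.67 (0.142). Of the 100 tested genes within 50 places of Adipoq, 13 had an unadjusted p under 0.05, beside 14.5% of all genes. Over all genes, 52.6% had a positive estimate. The neighbours of Rfc4 were looked up after its values were seen.

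**Figure D2:**
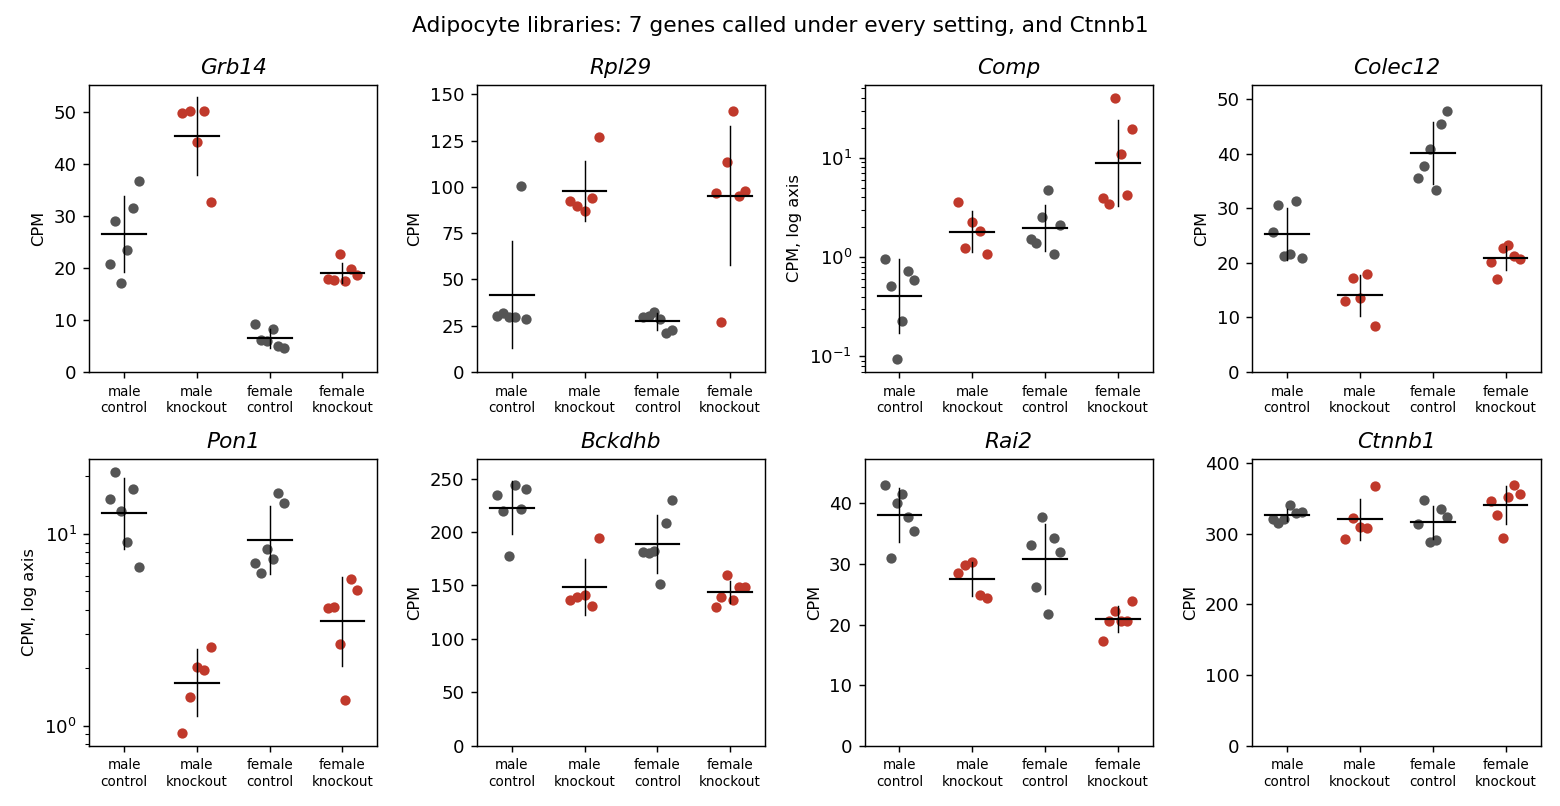
TMM-adjusted CPM of each library (points) in the 4 adipocyte groups for the 7 genes called under every setting run, and for Ctnnb1; lines give the mean and the vertical bar 1 SD, both taken on the log scale for Comp and Pon1, whose axes are logarithmic. Grb14, Rpl29 and Comp run higher in knockouts, Colec12, Pon1, Bckdhb and Rai2 lower, and the Ctnnb1 groups overlap.

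The amount of support differed between the shared genes. When each of the 23 libraries was left out in turn, 41 of the 85 called genes and 35 of the 63 shared genes were called in every fit. Of those, 7 were also called under all 14 other settings: Grb14, Comp and Rpl29 higher, and Pon1, Colec12, Bckdhb and Rai2 lower. The limit came from 1 setting, a mesothelial covariate described with the mesothelial markers: apart from it, 25 of the 85 called genes and 24 of the 63 shared genes were called throughout. Bckdhb encodes a subunit of the dehydrogenase that commits branched-chain keto acids to breakdown. It measured 136, 139, 141, 130 and 194 CPM in male knockouts against 177 to 244 CPM in male controls, and 130 to 160 CPM in female knockouts against 151 to 230 CPM in female controls. The labels overlapped in males through knockout 5 and control 3 and in females through control 4 (average log2 -0.49, SE 0.08, edgeR adjusted p = 0.00382). It was the single call among 23 genes of branched-chain amino acid metabolism, beside 0.597% of all genes, and the list median was 0.00. Bckdhb lies on chromosome 9, the chromosome of Ctnnb1, as does Rpl29.

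Rai2, a gene named for its induction by retinoic acid, measured 28.5, 29.8, 30.3, 24.8 and 24.3 CPM in male knockouts and 31.0 to 43.1 CPM in male controls. In females it was 17.4 to 23.8 CPM in knockouts and 21.8 to 37.7 CPM in controls. The male groups were apart and in females only control 4 fell into the knockout range (average log2 -0.52, SE 0.08, edgeR adjusted p = 0.00312). Comp, which encodes cartilage oligomeric matrix protein of the extracellular matrix, was scarce. It reached 3.59, 1.22, 2.24, 1.82 and 1.08 CPM in male knockouts against 0.0942 to 0.958 CPM in male controls, and 3.45 to 40.1 CPM in female knockouts against 1.07 to 4.76 CPM in female controls. The highest value was that of female knockout 3, and the groups overlapped in females through control 4 (average log2 2.36, SE 0.43, edgeR adjusted p = 0.00801).

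Rpl29, a protein of the large ribosomal subunit, had a pattern of its own across libraries. It measured 92.1, 89.5, 87.0, 93.8 and 127 CPM in male knockouts, and 28.4 to 31.7 CPM in 5 of the 6 male controls, but 100 CPM in male control 5. In females it measured 94.9 to 141 CPM in 5 of the 6 knockouts and 20.9 to 32.5 CPM in controls, but 27.0 CPM in female knockout 2. These 2 libraries thus stood at the level of the opposite label, and no library lay between 32.5 and 87.0 CPM. With them included, the average log2 difference was 1.53 (SE 0.23, edgeR adjusted p = 0.00288). Ribosomal protein genes have processed pseudogene copies, and how the deposited counts treated reads that match several copies is not given in the sources used here.

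Rpl29 lies on chromosome 9, as Ctnnb1 does, and is the 152nd tested gene before it in gene order. The same 2 libraries lay with the opposite label in 4 other called genes near it. Parp3, an ADP-ribosyltransferase of DNA repair, stood at 122 CPM in male control 5 against 59.9 to 69.6 CPM in the other male controls and 109 to 129 CPM in male knockouts. In female knockout 2 it stood at 90.9 CPM, against 143 to 161 CPM in the other female knockouts and 69.6 to 111 CPM in female controls. Ppm1m, a protein phosphatase, and Abhd14b, a hydrolase, gave the same picture, with 147 and 46.5 CPM in male control 5 and 44.5 and 20.8 CPM in female knockout 2. Hemk1, a methyltransferase that acts on translation release factors, ran the other way, lower in knockouts (average log2 -0.47, SE 0.10, edgeR adjusted p = 0.0292). It measured 19.9 CPM in male control 5 against 34.7 to 42.2 CPM in the other male controls, and 38.1 CPM in female knockout 2 against 25.0 to 26.2 CPM in the other female knockouts.

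In Grb14, Pon1 and Colec12, on 3 other chromosomes, both libraries lay with their own label: male control 5 measured 31.6, 17.2 and 31.4 CPM and female knockout 2 17.8, 4.14 and 17.0 CPM. A crossing was counted where a library lay within the range of the other label and outside that of its own, with the remaining libraries of its label fully apart from the other. Male control 5 crossed in 10 of the 85 called genes, 6 of them on chromosome 9, and female knockout 2 in 6, 5 of them on chromosome 9. The other libraries crossed in 0 to 10 genes, at most 2 of them on that chromosome. Female knockout 6 also crossed in 10, of which 2 were on chromosome 9. In SVC, Rpl29 measured 140, 142, 144 and 143 CPM of the library total in the 4 knockouts and 30.3, 26.6 and 168 CPM in the 3 controls. The high control is the SVC library whose column name bears the number 5, as does that of male adipocyte control 5. Ppm1m, at 44.4 to 58.3 CPM in SVC controls and 41.2 to 63.4 CPM in SVC knockouts, showed no such split there, and nor did Parp3 or Abhd14b.

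**Figure D3:**
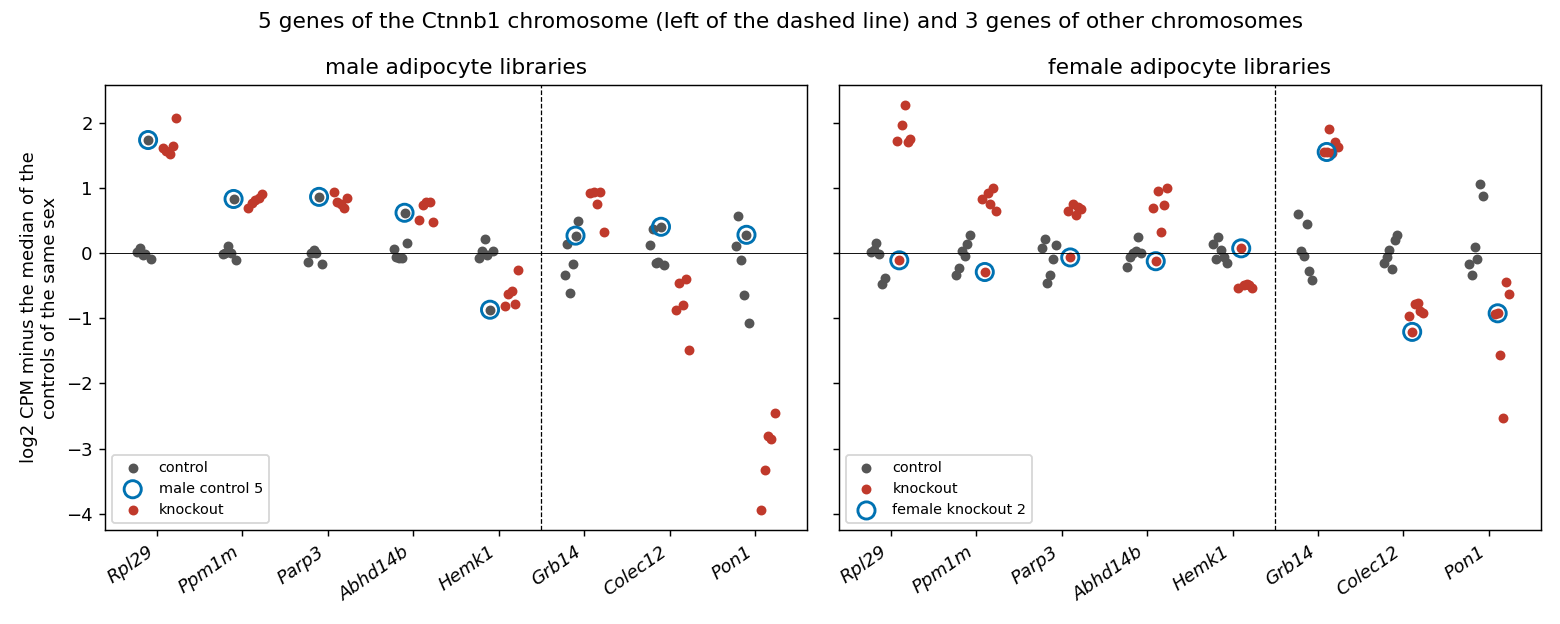
Level of 5 called genes of chromosome 9 and of Grb14, Colec12 and Pon1 in each adipocyte library, as log2 CPM minus the median of the controls of the same sex; circles mark male control 5 and female knockout 2. Left of the dashed line the circled libraries lie with the opposite label, and right of it with their own.

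Chromosome 9 held 15 called genes of 778 tested, or 1.93%, against 0.597% over the genome, and 13 of the 15 were shared genes. None was close to Ctnnb1: of the 87 tested genes within 50 places on either side, 0 were called by edgeR and 10 had an unadjusted p under 0.05, beside 14.5% of all genes. Among the genes before Ctnnb1 in gene order, calls numbered 1 of 50 at places 51 to 100, 4 of 50 at places 101 to 150, 3 of 50 at places 151 to 200, and 4 of 100 at places 201 to 300. An unadjusted p under 0.05 was reached by 7, 15, 11 and 20 genes of those windows. The first was Pfkfb4, an enzyme that sets fructose-2,6-bisphosphate and with it glycolytic flux. It measured 28.0, 24.9, 27.2, 19.8 and 21.7 CPM in male knockouts against 8.97 to 15.9 CPM in male controls, and 6.21 to 32.1 CPM in female knockouts against 4.16 to 13.0 CPM in female controls. The labels were fully apart in males and overlapped widely in females (average log2 0.99, SE 0.21, edgeR adjusted p = 0.0241). Ctsh, the lysosomal protease cathepsin H, was 0.98 higher (SE 0.21, edgeR adjusted p = 0.0315) and lost its call in 7 of the 23 fits that left out 1 library, among them the fit without female knockout 2. Bckdhb was among the 4 genes called at places 201 to 300. Glb1l2 and Idh3a, described further on, lay more than 300 places before Ctnnb1, where 3 of 440 tested genes were called. Gene order comes from the GRCm38 annotation, while the counts were made on mm39.

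The promoters of 18 of the 30 higher and 21 of the 33 lower shared genes were found in RefSeq (GRCm38.p6), as windows of 300 bases. The letters CTTTGAT, 1 form of the core bound by TCF/LEF factors, were searched on both strands. They were present in 1 of the 18 higher genes, Abhd14b, and in 0 of the 21 lower genes. Over all genes with a window, 4.29% held them. Other forms of the core were not searched, so a gene without these letters may still hold another form. A match describes letters only, and binding was not measured. The parts upstream of the start are shown for Grb14 among the higher genes, for Pon1 among the lower genes and for the gene with the match. Colec12, which had the smallest p, was not among the genes with a window. Each part is 250 bases on its own strand, 5′ to 3′. Capitals mark the letters searched, read as ATCAAAG from position 146 in Abhd14b, and the other sequences do not hold them. The windows lie at chr2:65022767-65023016 on the minus strand (Grb14), chr6:5193947-5194196 on the minus strand (Pon1) and chr9:106448390-106448639 on the plus strand (Abhd14b).
Grb14: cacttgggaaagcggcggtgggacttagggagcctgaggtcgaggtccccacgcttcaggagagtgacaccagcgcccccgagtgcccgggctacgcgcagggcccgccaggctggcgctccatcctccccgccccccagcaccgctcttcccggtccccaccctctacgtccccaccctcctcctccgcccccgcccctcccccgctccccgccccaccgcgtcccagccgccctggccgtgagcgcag
Pon1: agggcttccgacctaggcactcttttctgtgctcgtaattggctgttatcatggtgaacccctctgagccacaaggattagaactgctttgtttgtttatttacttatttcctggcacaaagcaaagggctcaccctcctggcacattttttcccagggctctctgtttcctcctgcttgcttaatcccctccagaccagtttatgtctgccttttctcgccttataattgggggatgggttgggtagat
Abhd14b: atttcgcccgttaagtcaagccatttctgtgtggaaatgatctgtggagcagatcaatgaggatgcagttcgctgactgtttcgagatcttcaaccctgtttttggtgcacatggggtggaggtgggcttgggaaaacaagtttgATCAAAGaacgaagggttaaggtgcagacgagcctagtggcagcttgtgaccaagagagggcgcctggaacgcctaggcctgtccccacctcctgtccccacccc

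Wnt pathway genes showed few differences. Of 44 tested genes of the Wnt signal (ligands, receptors, catenins, destruction complex and nuclear factors), 0 were called higher and 1 lower. Over all genes, 0.351% were called higher and 0.246% lower. The median of the 44 was -0.02 in the average, -0.03 in males and -0.02 in females. The gene called was Ctnnd1, which encodes p120-catenin, a partner of cadherins (-0.32, SE 0.07, edgeR adjusted p = 0.0449). It measured 9.18 to 12.0 CPM in male knockouts against 10.5 to 15.7 CPM in male controls and 9.80 to 12.3 CPM in female knockouts against 11.1 to 15.3 CPM in female controls, so the labels overlapped in both sexes, and it was called in 5 of the 23 fits that left out 1 library. Among 21 tested Wnt target and feedback genes 0 were called by edgeR, and the median of -0.08 combined 0.16 in males with -0.28 in females. The smallest p of that list was that of Sfrp2, at -1.39 (SE 0.35, edgeR adjusted p = 0.0643), with -2.13 in males and -1.04 in females. Outside the naming rule, Axin2, the standard target gene of canonical signalling, was at -0.65 (edgeR adjusted p = 0.0829), with -0.49 in males and -0.81 in females.

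Lower shared genes included markers of mesothelium, the cell layer that covers visceral fat. Of 13 tested mesothelial markers 0 were called higher and 3 lower, beside 0.351% and 0.246% of all genes. The list median was -1.56 beside 0.01 for all genes. All 13 estimates were negative in each sex. Krt19, a keratin of simple epithelia, measured 1.40, 0.363, 1.42, 1.06 and 0.226 CPM in male knockouts against 1.27 to 9.94 CPM in male controls, and 0.151 to 1.82 CPM in female knockouts against 0.776 to 14.3 CPM in female controls. Single controls, male control 1 and female control 4, stood far above the rest, and the labels overlapped in both sexes (-2.13, SE 0.44, edgeR adjusted p = 0.0238). The uroplakin genes Upk1b (-1.85, SE 0.41, edgeR adjusted p = 0.0315) and Upk3b (-1.51, SE 0.35, edgeR adjusted p = 0.0449) were the other 2. Upk1b was called in 16 and Upk3b in 6 of the 23 fits that left out 1 library.

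The summed level of the mesothelial markers was 18.8 to 128 CPM in male controls (median 40.9), 6.32 to 28.1 CPM in male knockouts (median 20.1), 11.6 to 107 CPM in female controls (median 41.1) and 10.4 to 21.8 CPM in female knockouts (median 14.2). Its median was lower in knockouts of both sexes, and its ranges overlapped between the labels. When the mean log2 level of these markers was added to the model, 8 genes were called, 7 of them among the 85. That fit is 1 of the 14 settings and by itself fixes the 7 genes called under all of them. The part of mesothelial RNA in the other results was not tested beyond this fit.

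**Figure D4:**
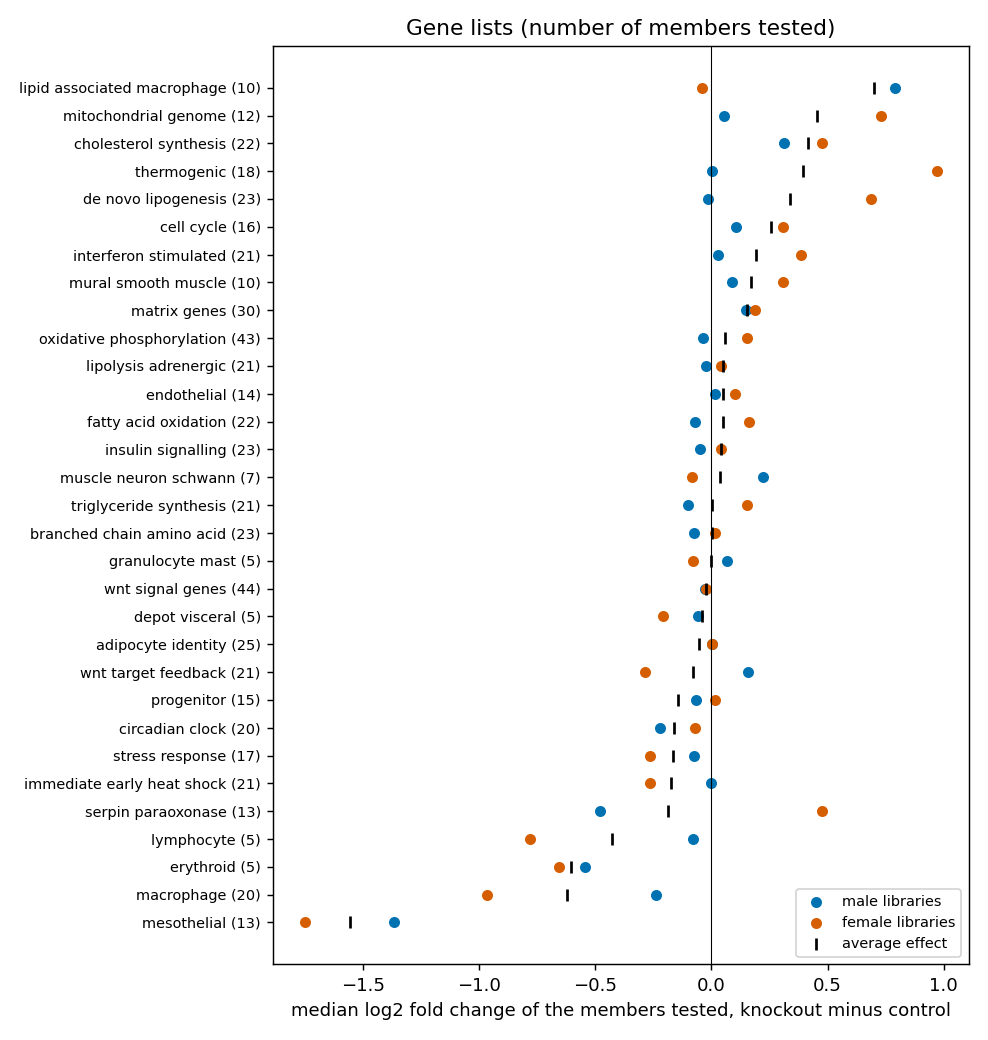
Median log2 fold change of the tested members of each gene list, in males (blue), in females (orange) and in the average (black bar), for the lists with at least 5 tested members; the number tested stands in brackets. The mesothelial list lies lowest in both sexes, with -1.36 in males and -1.75 in females.

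To place the shared genes, their levels in male control adipocytes were set beside those in male control SVC, both as CPM of the library total plus 0.1. Of the 33 lower genes, 15 (45.5%) were at least 4-fold higher in SVC and 8 (24.2%) at least 4-fold higher in adipocytes. Of the 30 higher genes, the counts were 5 (16.7%) and 6 (20%). Over all genes tested, 18.5% were that much higher in SVC and 7.65% in adipocytes. The lower genes at the SVC end included Lrp2, an endocytic receptor (0.777 CPM in adipocytes and 30.6 CPM in SVC), Krt19 (3.61 and 37.7 CPM), Plxdc2, a plexin-domain receptor (29.4 and 219 CPM), and Colec12 (25.3 and 133 CPM). Those at the adipocyte end included Cyp2e1, a cytochrome P450 that oxidises ethanol (8080 and 40.0 CPM), Pon1 (13.8 and 0.0155 CPM), Bckdhb (223 and 14.5 CPM) and Glb1l2, a relative of β-galactosidase (864 and 103 CPM). Grb14 (26.6 and 1.75 CPM) and Tfr2, a transferrin receptor (6.10 and 0.190 CPM), were the matching examples among the higher genes, and Comp (0.521 and 8.25 CPM) lay at the SVC end. The 4-fold limit was set after the levels were seen.

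**Figure D5:**
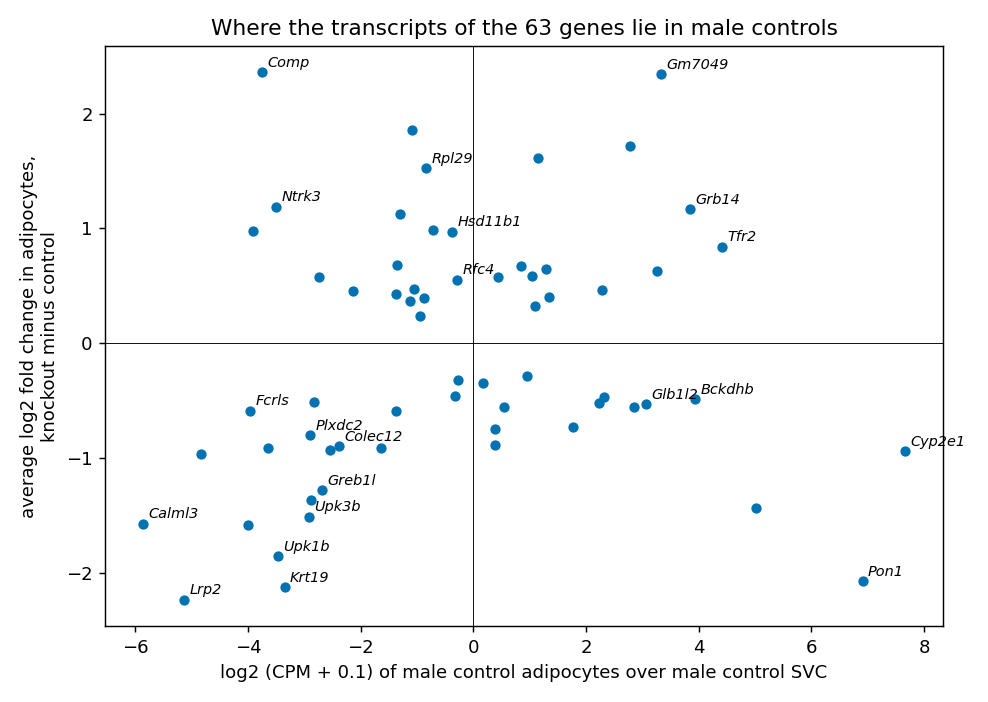
Each of the 63 shared genes by its level in male control adipocytes over male control SVC (x axis, log2 of CPM plus 0.1) and its average genotype effect in adipocytes (y axis, log2 fold change). The lower genes spread from Calml3 and Lrp2 at the SVC end to Pon1 and Cyp2e1 at the adipocyte end.

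Cyp2e1 was among the most abundant of the genes called lower. It measured 3016, 4764, 4913, 4478 and 3547 CPM in male knockouts against 7015 to 9115 CPM in male controls, and 877 to 2611 CPM in female knockouts against 1408 to 5589 CPM in female controls. The male labels were fully apart and the female labels overlapped (-0.94, SE 0.20, edgeR adjusted p = 0.0301), and the call was lost in 6 of the 23 fits that left out 1 library, namely those without male knockout 1, female controls 3, 5 or 6, or female knockouts 1 or 2. Glb1l2 fell in males from a range of 756 to 960 CPM to one of 557 to 708 CPM and in females from 622 to 1037 CPM to 415 to 643 CPM (-0.53, SE 0.10, edgeR adjusted p = 0.00824). The organic cation transporter gene Slc22a4 (-0.56, SE 0.10, edgeR adjusted p = 0.00685), Plxdc2 (-0.80, SE 0.13, edgeR adjusted p = 0.00436) and Tns3, a focal adhesion protein (-0.51, SE 0.09, edgeR adjusted p = 0.00436), were lower with calls in every fit that left out 1 library.

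In the SVC libraries, which did not enter the choice of these genes, 0 of 16404 genes were called by edgeR and 429 (2.62%) had an unadjusted p under 0.05. Of the 30 higher shared genes 26 were tested in SVC, 15 had a positive estimate, and 1, Gm7049, was higher at that p (0.421% of all genes tested in SVC were). Of the 33 lower ones 30 were tested, 18 had a negative estimate, and 5 were lower at that p (2.19% of all): the pseudogene Gm8210, Greb1l, Slpi, Upk1b and Upk3b. Slpi encodes a secreted inhibitor of leukocyte proteases. The mesothelial Upk1b averaged 34.8 CPM of the library total in SVC controls and 4.63 in SVC knockouts, and did not pass the adjusted threshold (log2 -2.89, edgeR adjusted p = 0.511). Colec12 was at -0.47 (edgeR adjusted p = 0.968) and Grb14 at 0.36 (0.968) in SVC. Without SVC control 2 or SVC knockout 3 the 6 genes became 3.

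The medians of the 2 lists of macrophage markers differed in sign in the average and in males, but not in females. Of 20 tested general markers, 0 were called by edgeR in the average, all 20 estimates were negative beside 47.4% of all genes, and the median was -0.62, with -0.24 in males and -0.96 in females. Their summed level was 741 to 1385 CPM in male controls, 705 to 1163 CPM in male knockouts, 365 to 697 CPM in female controls and 97.5 to 436 CPM in female knockouts. Of 10 tested markers of lipid-associated macrophages, 0 were called by edgeR, 8 had a positive estimate, and the median was 0.70, with 0.79 in males and -0.04 in females. Their summed level was 8191 to 11119 CPM in male controls, 7768 to 9623 CPM in male knockouts, 9682 to 12744 CPM in female controls and 10532 to 13793 CPM in female knockouts, and includes Lpl, which adipocytes express strongly. The median of that sum was 10470 CPM in male controls and 9072 CPM in male knockouts. In females it was 10849 CPM in controls and 13443 CPM in knockouts. Among the shared genes, Cd209b, a C-type lectin (-0.93, SE 0.21, edgeR adjusted p = 0.0315), and Dnase1l3, a secreted nuclease (-0.92, SE 0.20, edgeR adjusted p = 0.0315), were lower beside these values, and were called in 12 and 15 of the 23 fits that left out 1 library. The part of macrophage RNA in their change was not tested for each gene.

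In cholesterol synthesis, 1 of 22 tested genes was called higher and 0 lower, beside 0.351% and 0.246% of all genes. A positive estimate was found for 19 of the 22, beside 52.6% of all genes, and the median was 0.42 (0.31 in males and 0.47 in females). The summed level of the 22 genes did not show this in males: it was 986 to 1327 CPM in controls (median 1130) and 1014 to 2624 CPM in knockouts (median 1079), the highest being knockout 5. In females it was 1084 to 2048 CPM in controls (median 1365) and 1262 to 2740 CPM in knockouts (median 1783). The gene called was Hsd17b7, which encodes a ketoreductase of the late pathway. It measured 14.3, 12.5, 12.3, 12.5 and 20.6 CPM in male knockouts against 7.00 to 10.4 CPM in male controls, and 14.5 to 27.8 CPM in female knockouts against 8.96 to 19.3 CPM in female controls. The male labels were apart and the female ones overlapped (0.68, SE 0.13, edgeR adjusted p = 0.0119).

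Of 12 tested genes of the mitochondrial genome, 4 were called higher and 0 lower, beside 0.351% and 0.246% of all genes. The list median was 0.06 in males and 0.73 in females. mt-Co1, a subunit of cytochrome c oxidase, was the shared gene among them. It measured 11085, 13462, 8449, 10169 and 6182 CPM in male knockouts against 6819 to 8532 CPM in male controls, and 27919 to 38450 CPM in female knockouts against 16828 to 21822 CPM in female controls. The female labels were apart, while male knockouts 3 and 5 lay in or below the control range (0.58, SE 0.11, edgeR adjusted p = 0.00801). mt-Nd5, mt-Cytb and mt-Nd4 passed in the average and missed an unadjusted p of 0.05 in males.

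Among thermogenic genes, 2 of 18 tested were called higher and 0 lower, beside 0.351% and 0.246% of all genes. The list median was 0.00 in males and 0.97 in females. The 2 genes called were Ppargc1a, the coactivator of mitochondrial biogenesis (0.82, SE 0.19, edgeR adjusted p = 0.0382), and Otop1, a proton channel (1.67, SE 0.39, edgeR adjusted p = 0.0447). Neither was a shared gene, and they were called in 11 and 8 of the 23 fits that left out 1 library. Whether effects differ between the sexes was tested by the interaction term, which called 2 genes (0.0141%), Serpina3k and Akirin2. Neither of those was called in the average. The difference, female minus male, was 0.84 (SE 0.34) for Ppargc1a and 1.22 (SE 0.77) for Otop1. A missed call in this term does not show equal effects. Of the 85 genes called in the average, 21 had an unadjusted p under 0.05 for the difference, where 8.87% of all genes did. Of these 21, 6 were shared genes, whose own rule (the same sign and an unadjusted p under 0.05 in each sex) limits such differences.

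Further genes that were higher in both sexes have roles across metabolism and signalling. Ntrk3, the receptor of neurotrophin-3, measured 1.97, 2.77, 1.99, 1.86 and 3.52 CPM in male knockouts against 1.00 to 2.24 CPM in male controls, and 7.33 to 21.5 CPM in female knockouts against 2.42 to 5.33 CPM in female controls (1.19, SE 0.21, edgeR adjusted p = 0.00527). The labels overlapped in males through control 2. Gldc, the glycine decarboxylase of the glycine cleavage system, gave 1.12 (SE 0.20, edgeR adjusted p = 0.00554), and Tfr2 gave 0.84 (SE 0.17, edgeR adjusted p = 0.0168). For both, the labels were apart in females and overlapped in males. Male knockouts had 1.41 to 3.21 CPM of Gldc against 1.00 to 1.93 CPM in male controls, and 5.60 to 10.9 CPM of Tfr2 against 3.47 to 11.1 CPM. Fitted alone, the male libraries gave Tfr2 an unadjusted edgeR p of 0.0746. Outside the naming rule, and chosen after their values were seen, Idh3a, a subunit of the isocitrate dehydrogenase of the citric acid cycle, was higher by 0.46 (SE 0.09, edgeR adjusted p = 0.0110) and Vldlr, a lipoprotein receptor, by 0.39 (SE 0.08, edgeR adjusted p = 0.0168). Adipocyte identity genes had 0 calls among 25 by edgeR, and their median was -0.05. Genes of de novo lipogenesis had 0 calls among 23 by edgeR, with a median of -0.01 in males and 0.69 in females.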

How the data were processed

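The raw count table and the rlog table were deposited by the authors. The counts are whole reads per Ensembl gene, and the rlog values are log2 values made by the authors with DESeq2. The submitters' processing notes name FastQC 0.12.1, STAR 2.7.11a, DESeq2 and the mm39 build; how reads were counted is not stated there. Members and gene lists were chosen with earlier results of these data known.

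Counts of 23 adipocyte libraries were fitted in edgeR 4.0.16 (R 4.3.3) after filterByExpr (minimum count 10), with TMM scaling, a robust quasi-likelihood fit and sex plus genotype as terms. A fit of the 4 groups gave the male, female and difference contrasts. P-values were adjusted by the Benjamini-Hochberg method over all 14227 genes. SVC libraries were fitted separately (16404 genes). SE is the log2 change over the root of F. Symbols were found for 33501 of 35120 genes. On simulated counts (14126 genes), 80.6% of genes changed 1.5-fold and 95.5% changed 2-fold were called, with 7 false calls. The changed genes were drawn only from those above a set mean level, and the counts of each gene were drawn independently of other genes.

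Named genes were Ctnnb1, the 12 largest and 8 smallest-p shared genes each way with at least 1 CPM in a group, up to 3 other called genes each way, up to 2 members a list, and up to 6 called genes of the Ctnnb1 chromosome; predicted genes were left out. Of the 34 lists, those not described had no called member apart from Pon1, Comp and Col27a1, a collagen gene, or, for epididymal and sperm genes, no tested member. The Ctnnb1 permutation test drew 100000 relabellings within sex. Alternatives were other scalings, filters and tools (DESeq2 1.42.0, limma 3.58.1 on voom and on the deposited log2 rlog values), marker levels as covariates, the replicate number as a block, and leaving out each library. No 2 libraries of a group agreed within counting noise (lowest chi-square 12.9 per degree of freedom).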

Additional observations from a re-analysis of the deposited data

Results flagged for a closer look

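In groups of 5 or 6 libraries, the highest or lowest value of 32 of 268 gene and group pairs (67 named genes, 4 groups) lay farther from its nearest neighbour than Dixon's 95% limit allows. Chance alone does this in about 1 of 20 groups. Male control 5 stood apart with 100.4 CPM for Rpl29 (highest), 22.8 CPM for Ctsh (highest), 11.1 CPM for Tfr2 (highest), 147 CPM for Ppm1m (highest), 122 CPM for Parp3 (highest), 46.6 CPM for Mest (lowest) and 46.5 CPM for Abhd14b (highest). Male knockout 5 stood apart with 127 CPM for Rpl29 (highest), 20.6 CPM for Hsd17b7 (highest), 8.17 CPM for Rfc4 (highest), 194 CPM for Bckdhb (highest), 18.8 CPM for Cidea (highest) and 2.12 CPM for Otop1 (highest). Male control 1 stood apart with 9.94 CPM for Krt19 (highest), 2.74 CPM for Cyp2s1 (highest), 57.6 CPM for Upk3b (highest) and 2.19 CPM for Sfrp2 (highest). Female knockout 2 stood apart with 44.5 CPM for Ppm1m (lowest) and 90.9 CPM for Parp3 (lowest). Female control 4 stood apart with 14.3 CPM for Krt19 (highest) and 8.82 CPM for Upk1b (highest). Male control 2 stood apart with 24.7 CPM for Cidea (highest) and 2.19 CPM for Otop1 (highest). Male control 6 stood apart with 4.43 CPM for Atp6v0d2 (highest) and 105 CPM for Hoxc8 (highest). Female control 5 stood apart with 0.194 CPM for Cyp2s1 (lowest). Male control 3 stood apart with 177 CPM for Bckdhb (lowest). Female control 2 stood apart with 2.53 CPM for Fam20a (lowest). Female knockout 3 stood apart with 10.6 CPM for Ppargc1a (highest). Male knockout 4 stood apart with 7.31 CPM for Atp6v0d2 (highest). Female control 3 stood apart with 268 CPM for Acta1 (highest). Female knockout 6 stood apart with 201 CPM for Acta1 (highest).

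Of the 32 values, 7 belonged to male control 5 and 6 to male knockout 5. The 4 values in male control 5 for Rpl29, Ppm1m, Parp3 and Abhd14b lay at the level of the knockouts, and the 2 in female knockout 2 at the level of the controls, as described with chromosome 9. Ctsh in male control 5 also lay within the male knockout range (16.8 to 28.3 CPM). In female knockout 2, Ctsh measured 43.5 CPM and lay with its own label. Male control 1 and female control 4 held the high values of the mesothelial markers Krt19, Upk3b and Upk1b between them. Rfc4, Hsd17b7 and Rpl29 in male knockout 5 extended the direction of the other knockouts, whereas Bckdhb in that library lay among the controls.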

How the results depend on the processing

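All 63 shared genes kept their sign under every setting that tested them. Called genes in the average, shared genes, and genes called in males, in females and for the difference of the sexes numbered 85, 63, 10, 67 and 2. DESeq2 gave 312, 175, 159, 206 and 23, and 106 in place of 11 genes called in 1 set and repeated at an unadjusted p under 0.05 in the other. The replicate block gave 149, 128, 17 and, for the difference, 1. The macrophage covariate gave 135, 101, 19, 27 and 0, and called 44 of the 85 and 40 of the 63 genes again. The mesothelial covariate gave 8, 8, 3 and 10 for the first 4 counts. A depot covariate gave 43 in females and 0 for the difference, and no low-count filter gave 1 for the difference. Fitting a sex alone gave 6 in males and 22 in females. Without male knockout 5 and female knockout 3, the libraries of lowest correlation with their own group (chosen after seeing the data), the counts were 138, 103, 409, 109 and 23.

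Leaving out 1 library at a time gave 46 to 114 called genes, 37 to 88 shared genes, 4 to 332 in males, 32 to 89 in females, 0 to 22 for the difference, 4 to 66 for 1 set read in the other, 3 to 6 in SVC, and a Ctnnb1 difference of 0.555 to 10.1 CPM. The male, difference and 1-set maxima were all without male knockout 5; the male count was 55 without male control 2, 6 without male knockout 4 and 4 without male control 1. In females it was 32 without knockout 1, 33 without control 3, 39 without control 4, 40 without knockout 5 and 42 without knockout 2. The causes were not tested.

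The replicate numbers were not shown to pair the samples: 6 of 11 same-numbered pairs of knockout and control had a correlation of deviations over 0.1 (5 of 6 in females and 1 of 5 in males), and 7 libraries correlated best with their own number. The block used the numbers of the sample titles, which put male knockout 5, whose column name bears the number 6, with male control 5. Of the 85 called genes, 63 were among the 149 called with the block. Depth limits scarce genes such as Comp, with levels down to 0.0942 CPM. In simulated data 80.6% of 1.5-fold changes were called. Those changes were placed only in genes above a set mean level, so that share does not describe the scarcest genes. Simulated counts were drawn independently for each gene, so the share does not cover shifts that many genes of a library have in common.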
